A study of Mus musculus with 3 samples.

Results

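The Iroquois homeobox genes of the mouse lie in 2 clusters of related genes, one on chromosome 8 with Irx3, Irx5 and Irx6 and one on chromosome 13 with Irx1, Irx2 and Irx4. Peaks of Cbx2 were taken as members when they overlapped one of 2 windows of the mm9 genome build, 94280000 to 95230000 on chromosome 8 or 72050000 to 73430000 on chromosome 13. Of the 2217 peaks in the deposited table, 1 overlapped the chromosome 8 window and 0 overlapped the chromosome 13 window. The name of the set, 2 gene clusters, was therefore met by a single peak of 400 bp, and the clusters could not be compared with each other. A window without a listed peak has no value in the table, so nothing was measured here for Irx1, Irx2 and Irx4. A low or absent Cbx2 signal at these genes cannot be read from the missing value. The peak in the chromosome 8 window covered 0.042% of that window and was not assigned to a gene. No value is therefore given for Irx3, Irx5 or Irx6 by name either.

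The libraries came from C3H10T1/2 cells, a mesenchymal progenitor line derived from mouse embryo, grown in medium with fetal bovine serum. Chromatin immunoprecipitation (ChIP) with a Cbx2 antibody was done in cells that stably carry a FLAG-HA-tagged wild-type H3.3 histone, called WT here. It was also done in cells with H3.3 in which lysine 36 is methionine (K36M), a group known from the title of that library. The genotype label of the K36M library also reads wild-type H3.3. Each group had 1 library, with 29278813 reads in WT and 36243012 in K36M, so the spread between replicates is unknown and no p-value is given. The cell type could not be checked, since no expression was measured in these libraries.

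Iroquois proteins are homeodomain transcription factors of the TALE class that help to pattern the nervous system, heart and limbs. Irx3 and Irx5 act together in the developing limb and heart, and Irx4 is known for its expression in the ventricles of the heart. Genes of this kind are kept silent outside their own tissues by Polycomb complexes, and Cbx2 belongs to one of them, Polycomb repressive complex 1, which it tethers to trimethylated lysine 27 of histone H3. The K36M histone blocks the methyltransferases of lysine 36, and the study set the genomic distribution of Cbx2 in cells with this histone beside that in WT cells.

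The single peak in the windows spanned 95120800 to 95121199 on chromosome 8 and had less Cbx2 signal in the K36M library. It is called the Iroquois peak here for its window only, since it was not assigned to a gene. It held 31 reads in WT and 10 in K36M, or 1.06 and 0.276 reads per 1000000 library reads (RPM). The K36M value was the lower one, and the K36M/WT ratio was 0.261, with a 95% exact (Clopper-Pearson) interval of 0.114 to 0.545. The table has a floor in WT and none as high in K36M: the lowest density of any listed peak was 9.5 reads per 200 bp in WT and 1.0 in K36M. A list with such a floor favours ratios below 1, and the interval does not allow for it. It covers counting error only, since it leaves out variation between cultures, immunoprecipitations and libraries. Whether PCR copies of a molecule were removed is not given, and any left in would count as separate reads. The log2 ratio, computed with a pseudocount of 0.1 RPM in both libraries, was -1.62. The peak was therefore among those at least 2-fold lower in K36M, as were 75.3% of all peaks in the table, so most peaks met the same limit. The call was lost when the libraries were given the same median, upper quartile or sum over all peaks. The ratios were then 0.753, 0.742 and 0.631. These scalings set the list as a whole level between the libraries, so they take out a change that the listed peaks share. The call was also lost with a pseudocount of 1 RPM, which gave a log2 ratio of -0.69. The share of all peaks that kept the call in these settings was not computed. At least 2-fold higher signal was found at 0.271% of all peaks. Listed peaks held 1.63% of the WT reads and 0.674% of the K36M reads, so the K36M library was lower over the list as a whole. No input background was taken off here, so the ratios are of reads and not of enrichment over input.

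The peak lay toward the far end of its window, 840.8 kb after the window's start and 108.8 kb before its end. On the GRCm38 assembly, where all 6 Iroquois symbols were found, the genes follow each other as Irx3, Irx5 and Irx6 along chromosome 8 and as Irx1, Irx2 and Irx4 along chromosome 13. Gene positions on mm9 were not used here and coordinates were not moved between assemblies. The peak was therefore not assigned to one of the 3 genes, and whether it lies in an exon, an intron or between genes is not given.

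**Figure D1:**
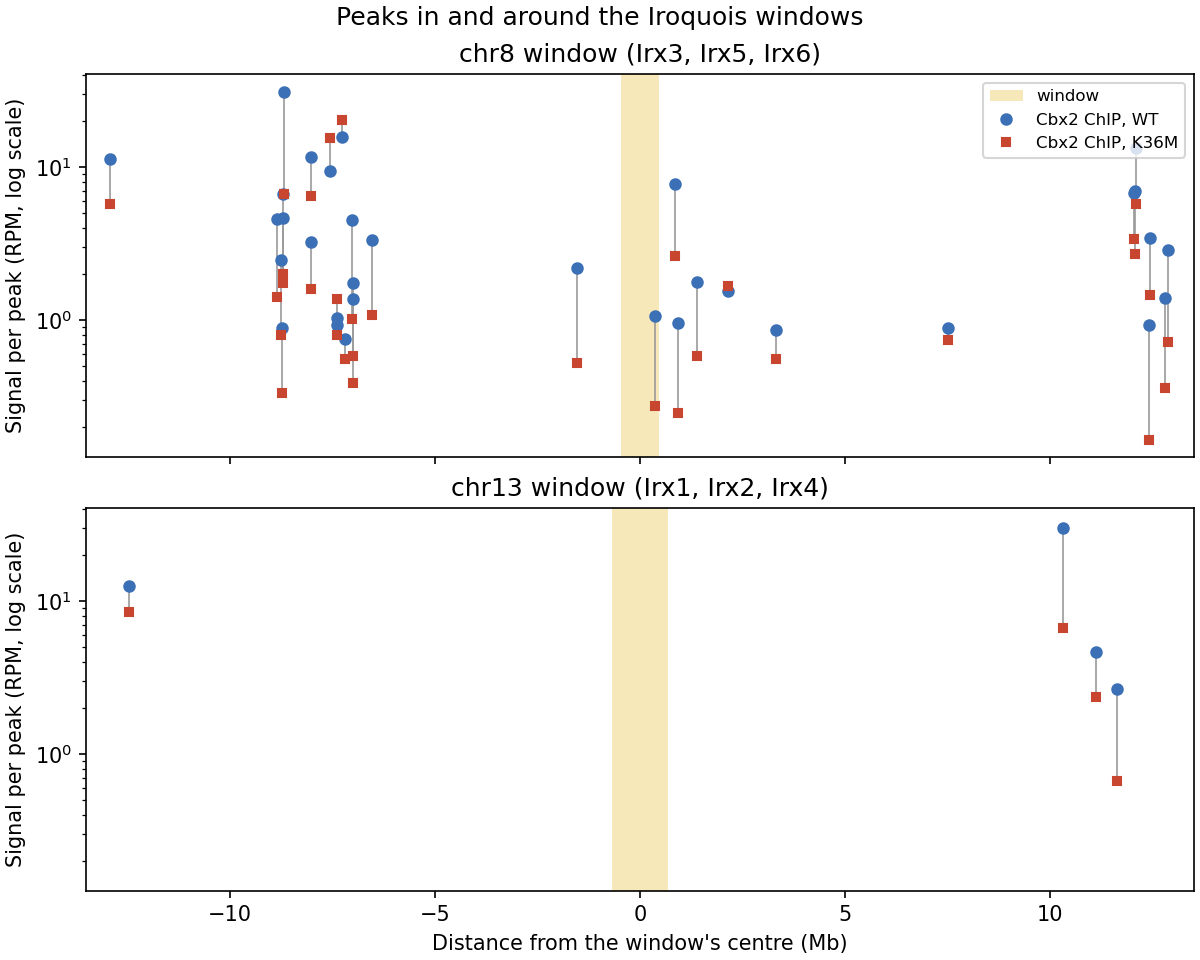
Cbx2 signal per peak (RPM, log scale) against distance from the centre of the chromosome 8 window (top) and the chromosome 13 window (bottom). Circles are the WT library, squares the K36M library, a grey line joins the same peak, and shading marks the window. The chromosome 8 window holds 1 peak, at 1.06 RPM in WT and 0.276 RPM in K36M, and the chromosome 13 window holds 0.

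The peak stood alone. The peak before it on chromosome 8 ended 1.90 Mb away and the one after it began 494.4 kb away, against a median gap of 194 kb between neighbouring peaks over the table. Its nearest peak was farther off than that of 81.4% of all peaks and of 74.8% of the peaks of 400 bp. The median distance to the nearest peak was 43.8 kb over all peaks and 122.3 kb over those of 400 bp. When peaks were grouped so that a gap of at least 100 kb started a new group, it formed a group of 1 peak, as did 66.7% of the 1286 groups. Most groups thus held a single peak, of whatever length, but this is a share of groups and not of peaks.

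The nearest peaks outside the chromosome 8 window were lower in K36M too, but they come from the same list with its WT floor, so their direction is not independent support for that of the Iroquois peak. The one before the window, a 1000 bp peak from 93218000 to 93218999, had 64 WT reads and 19 K36M reads, which gives a ratio of 0.240 (0.136 to 0.405). The one after the window, a 3000 bp peak from 95615600 to 95618599, had 225 and 95 reads, or a ratio of 0.341 (0.265 to 0.435). Set against these neighbours, the ratio of the Iroquois peak was 1.09 times that of the peak before (95% exact conditional interval 0.401 to 2.81) and 0.765 times that of the peak after (0.321 to 1.68). Both intervals include 1, so a difference from either neighbour was not detectable at this depth, and they leave room for differences of more than 1.5-fold either way. With the window widened by 500 kb on each side, chromosome 8 gave 3 peaks, the third a 400 bp peak from 95685000 to 95685399 with 28 and 9 reads and a ratio of 0.260 (0.108 to 0.566). The 3 peaks together had 284 WT reads and 114 K36M reads, with a ratio of 0.324 (0.259 to 0.404). The chromosome 13 window widened in the same way still overlapped 0 peaks.

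Around the chromosome 13 window the table listed no peak over 22.8 Mb, the second longest of its 2197 gaps between neighbouring peaks. Chromosome 13 held 63 peaks in all and chromosome 8 held 114. The last peak before the gap, from 60274400 to 60279999, had 367 WT reads and 308 K36M reads, so its ratio was 0.678 (0.581 to 0.791). The first after it, from 83039200 to 83050799, had 875 and 241 reads, so its ratio was 0.223 (0.192 to 0.257). These peaks lay 11770 kb before and 9609 kb after the window, too far off to stand for the Iroquois genes. The lowest WT density of any listed peak was 9.5 reads per 200 bp. How peaks were chosen for the list is not given, and why this stretch has no row was not tested.

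**Figure D2:**
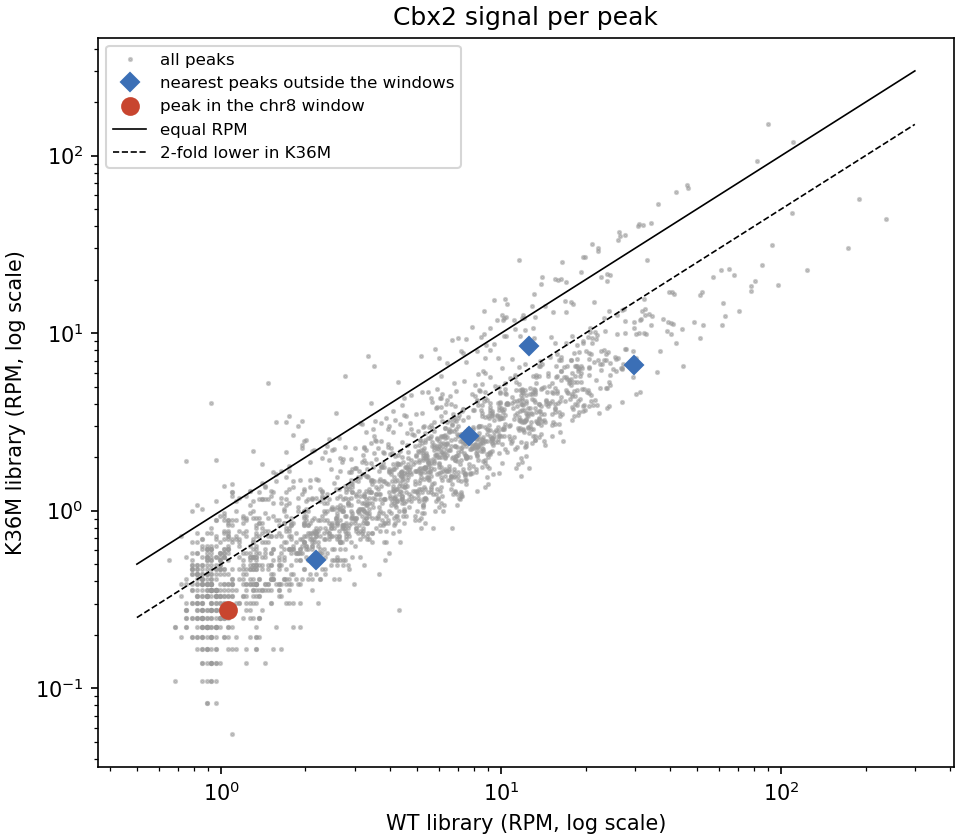
Cbx2 signal of each of the 2217 peaks in the K36M library against the WT library (RPM, log scales). The large circle is the Iroquois peak at 1.06 and 0.276 RPM, diamonds are the nearest peaks outside the 2 windows, the solid line marks equal signal and the dashed line a 2-fold lower signal in K36M. The Iroquois peak lies below the dashed line among many other weak peaks.

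In level, the Iroquois peak was one of the weaker peaks in the table. Only 14.7% of all peaks had fewer reads in WT, where the median was 112 reads, and 5.64% had fewer in K36M, where the median was 48. This order follows length, since 400 bp was the shortest length listed and the median peak was 1600 bp long. Per length, the peak had 15.5 reads per 200 bp in WT, where the median peak had 13.8, and 5.0 in K36M, where the median peak had 6.0. In WT density it therefore stood above the median peak, and in K36M density below it.

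Among the 428 peaks of 400 bp the Iroquois peak was above the median in WT and below it in K36M. The median 400 bp peak had 27 reads in WT, with quartiles of 25 and 30, and 14 in K36M, with quartiles of 9.75 and 20. The median log2 ratio of these short peaks was -1.12, and 18.0% of them had a lower log2 ratio than the Iroquois peak. At least 2-fold lower signal in K36M was found at 55.8% of the 400 bp peaks, and at least 2-fold higher signal at 0.467%. Of the 400 bp peaks, 27 others also had 31 reads in WT, and their K36M reads ran from 6 to 32 with a median of 21. In 5 of these the K36M count was below that of the Iroquois peak and in 22 above it.

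**Figure D3:**
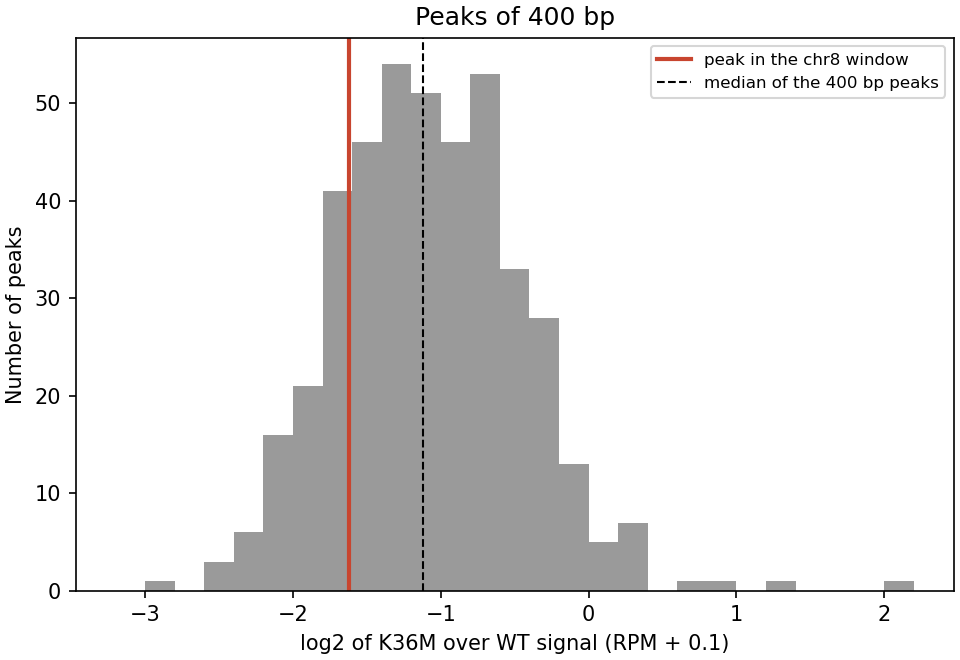
Number of 400 bp peaks by log2 ratio of K36M to WT signal (RPM with a pseudocount of 0.1). The solid line is the Iroquois peak at -1.62 and the dashed line the median of the 428 peaks at -1.12.

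A comparison of ratios does not depend on how either library is scaled. The ratio of the Iroquois peak was 0.631 times that of the summed reads of the 2216 other peaks, with a 95% exact conditional interval of 0.276 to 1.32. Against the summed reads of the 427 other 400 bp peaks, which had a ratio of 0.488 (0.474 to 0.503), it was 0.534 times as large (0.233 to 1.12). Both intervals include 1, so with 31 and 10 reads a change at the Iroquois peak beyond that of the other peaks was not detectable. These intervals cover counting error in 2 libraries and compare the libraries, not the conditions. Summed reads give most weight to the strongest peaks. The median ratio of single peaks was 0.341 over all peaks and 0.404 over those of 400 bp, closer to that of the Iroquois peak at 0.261.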

How the data were processed

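Alignment used Bowtie 1.0.0 and the mm9 build, per the submitters' processing notes. Not given in the sources used here are the peak caller, the library in which peaks were called, duplicate handling and any input correction. The deposited values are headed RPKM, but 100% of them in each column were whole multiples of 1 step, within 1e-06 of a read, whatever the peak length, so they were read as RPM. Taking that step as 1 read gave the read counts and library totals. The column for WT was read as Cbx2 ChIP and not as input, since Cbx2 is in the name of the table. The labels name different suppliers of the antibody in different fields. The input library was not analysed here.

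Intervals were computed with Python 3.11.15 and scipy 1.17.1, and the calculations were tested on simulated reads. With 1 library per group no test was run. Peaks in full were the member and the nearest peaks outside each window. The windows, lists and alternatives were chosen with earlier results of these data known, and the comparisons with the 400 bp peaks, the ratios of ratios against other peaks and neighbours, and the ranking of distances between peaks were chosen after the values were seen. Alternatives were other pseudocounts, filters, scalings, fold limits, window widths and gaps for grouping peaks.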

Additional observations from a re-analysis of the deposited data

How the results depend on the processing

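No paired analysis was possible because WT and K36M have 1 ChIP library each, and for that reason no replicate could be left out. The ratio for chromosome 13, the ratio between the clusters and the ratio without the strongest member could not be computed, since the windows held 1 peak in all. The scaling of the libraries decided whether the Iroquois peak passed the 2-fold limit. When both libraries were given the same median, the same upper quartile or the same sum over all peaks, its ratio moved from 0.261 to 0.753, 0.742 and 0.631, its log2 ratio to -0.37, -0.39 and -0.59, and 0 member peaks were at least 2-fold lower. These scalings moved the median log2 ratio of all peaks from -1.45 to -0.022, -0.042 and -0.27. They take the list as a whole to be level between the libraries, so the lost call is not particular to the Iroquois peak. With a pseudocount of 1 RPM, as large as the peak's own WT signal, its log2 ratio was -0.69, 0 member peaks were at least 2-fold lower and the median of all peaks was -0.94. With 0.01 RPM these log2 ratios were -1.90 and -1.55. A filter at the lower quartile or at the median of mean RPM left out the Iroquois peak and gave medians of -1.51 and -1.56 over all peaks. Widening the window raised the count of lower peaks to 3, since 2 peaks were added, and 75.3% of all peaks met the same limit. At limits of 1.5-fold and 3-fold the Iroquois peak was still called lower, it lay wholly inside its window, and it stayed a group of 1 peak with gaps of 50 and 200 kb. Its 31 and 10 reads limit the precision of every value given for it.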
